A study of Homo sapiens with 60 samples.

Results

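The AP-1 and immediate early factors are followed here across A549 cells treated with herbal extracts. The 10 member genes, taken by symbol from the deposited table of 60675 genes, are the Fos family genes FOS, FOSB, FOSL1 and FOSL2, the Jun family genes JUN, JUNB and JUND, and the immediate early genes EGR1, IER2 and IER3. All 10 passed the filter on low counts, which left 18396 genes for testing. RNA was sequenced from 60 libraries of A549, an established human lung adenocarcinoma line, 24 h after treatment with 1 of 8 extracts made with 70% ethanol, or with DMSO vehicle (3 libraries). The high, medium and low doses were 380, 76 and 15.2 µg/mL for Polygalae Radix (2 libraries at each dose). For Aucklandiae Radix, also with 2, they were 370, 74 and 14.8 µg/mL. The other 6 extracts were used at 500, 100 and 20 µg/mL, namely the herbs Saposhnikoviae Radix and Menthae Herba and the formulas Guibi-tang and Saengmaek-san with 3 libraries at each dose, Soyo-san with 2 and Okbyeongpung-san with 1. All groups are 1 cell line. Whether replicate libraries came from different cultures is not stated in the labels, and the p-values then cover only the variation among libraries, which may be technical. In bulk RNA, fewer cells of a kind and less RNA per cell cannot be told apart.

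AP-1 is a dimer of basic leucine zipper proteins. A Jun protein pairs with another Jun protein or with a Fos protein and binds the AP-1 site or the related cyclic AMP response element (CRE) in DNA. Genes such as FOS, FOSB and EGR1 are known as immediate early genes because serum, growth factors or stress switch them on within minutes, through MAP kinases, serum response factor and CREB and with no need for new protein, after which their short-lived messages fall again. FOSL1, also called FRA1, is known for sustained expression downstream of RAS and ERK signalling in lung carcinoma cells.

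Total expected counts ran from 17113963 to 33363661 per library, with a median of 26380155. DMSO is 0.1% in the sample labels and 2% in the series text. Every sample title carries the same batch name, BatchD. Library sets are taken here from the first part of the library names, which no label calls a set. By these names the vehicle makes up a set by itself, while the extracts come 2 to a set. A difference from vehicle and a difference between sets thus cannot be told apart. Comparing the high and low dose within an extract stays inside 1 set and is therefore given first. The libraries also fall into 2 classes that no label gives, separated by the gene ENSG00000282955, which lay at 3.50 CPM or less in 38 libraries (class 1) and at 17.6 CPM or more in 22 (class 2). CPM is the count scaled to a common library size with TMM factors. The exceptions are ENSG00000282955 and the cell type markers and their sums, scaled by library totals alone. Vehicle, Soyo-san and Okbyeongpung-san libraries were all class 2, Aucklandiae Radix and Menthae Herba libraries all class 1, and 9 groups held both. All 6 epithelial markers listed (EPCAM, KRT7, KRT8, KRT18, KRT19 and CDH1) had a median of at least 1 CPM. Among the defining leukocyte markers, PTPRC was at 0 in 55 libraries, CD3E in all 60 and LYZ in 29, while CD14 was at 0 in none, with a median of 2.85 CPM and a range from 0.175 to 6.41. Of the fibroblast markers, COL1A1 and COL3A1 were detected, with median CPM values of 30.4 and 5.49, and the other 4 lay below 1.

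EGR1 and FOSB were the members whose levels differed most between groups, and their promoters are printed with those of FOS and JUNB, which did not follow them in every extract, so that the 4 can be compared. The sequences are from RefSeq (GRCh38.p14), which held an entry for 8 of the 10 members, and run from 250 bases before to 50 bases after the gene's start. EGR1 is chr5:138465229-138465528, FOSB chr19:45467746-45468045, FOS chr14:75278578-75278877 and JUNB chr19:12791236-12791535, all on the plus strand. Capitals mark the CArG box, which serum response factor is known to bind, and the CRE core TGACGT, on either strand. They also mark the AP-1 site TGANTCA. The last motif marked is the TATA motif, TATAAA.
EGR1: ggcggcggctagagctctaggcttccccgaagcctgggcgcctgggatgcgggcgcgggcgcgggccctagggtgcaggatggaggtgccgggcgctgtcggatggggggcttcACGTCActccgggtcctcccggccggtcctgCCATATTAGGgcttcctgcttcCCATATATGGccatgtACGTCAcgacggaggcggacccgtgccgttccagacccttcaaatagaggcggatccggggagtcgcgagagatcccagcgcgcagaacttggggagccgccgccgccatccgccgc
FOSB: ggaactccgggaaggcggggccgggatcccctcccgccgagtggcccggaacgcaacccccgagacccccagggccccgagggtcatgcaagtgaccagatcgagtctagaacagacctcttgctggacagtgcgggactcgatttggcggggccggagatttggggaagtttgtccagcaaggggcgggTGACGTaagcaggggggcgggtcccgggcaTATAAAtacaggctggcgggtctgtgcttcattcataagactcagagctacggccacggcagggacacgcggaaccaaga
FOS: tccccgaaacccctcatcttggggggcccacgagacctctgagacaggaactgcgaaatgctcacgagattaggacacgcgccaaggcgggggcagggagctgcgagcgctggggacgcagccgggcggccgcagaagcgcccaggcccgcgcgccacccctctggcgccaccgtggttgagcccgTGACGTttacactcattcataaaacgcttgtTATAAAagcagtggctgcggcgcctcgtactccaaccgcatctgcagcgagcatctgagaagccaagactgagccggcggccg
JUNB: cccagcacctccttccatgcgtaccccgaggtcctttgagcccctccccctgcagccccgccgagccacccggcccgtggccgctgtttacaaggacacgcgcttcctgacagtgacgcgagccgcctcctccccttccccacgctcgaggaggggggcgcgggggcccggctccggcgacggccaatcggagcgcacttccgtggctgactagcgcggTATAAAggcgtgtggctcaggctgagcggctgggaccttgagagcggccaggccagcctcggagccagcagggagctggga

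Both strands were searched. The EGR1 window held 2 CArG boxes and 2 CRE cores, and none of the other 7 members' windows held a CArG box. Bases outside the windows were not searched. The search thus cannot tell whether those 7 genes, FOS and FOSB among them, have a CArG box farther from the start. A CArG box lay in 1.3% of 34943 RefSeq promoter windows of this length, so it is rare in the background. FOSB and FOS each held 1 CRE core, at positions -60 and -64 from the start, and 1 TATA motif, at -30 and -33. The CRE core was found in 7.97% and the TATA motif in 11.6% of all windows. JUNB held a TATA motif at -31 and no other motif marked here. The window of JUND (not printed) held the full CRE TGACGTCA at -200, present in 1.84% of all windows, and that of FOSL2 the AP-1 site TGANTCA at position 4, present in 7.72%. The windows of JUN and IER2 held none of these. These are matches of letters, and the count table says nothing of what bound there.

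In vehicle cells the members spanned a wide range of levels per exon length. IER3 stood highest, at 49.8 ± 3.44 CPM per kb of exon (SD, n = 3), followed by JUNB at 33.7 ± 0.963 and JUND at 29.9 ± 2.99. FOSL2 (21.2 ± 0.448), IER2 (18 ± 0.499) and FOSL1 (17.8 ± 1.88) came next, and the libraries of IER2 and FOSL1 overlapped on this scale. JUN lay at 8.30 ± 0.616 CPM per kb. The classical immediate early genes were lowest, with FOS at 1.22 ± 0.0482, EGR1 at 0.532 ± 0.0464 and FOSB at 0.217 ± 0.0537 CPM per kb. Across all 25 groups FOSB and EGR1 varied most and FOS did not. The highest group mean stood 9.59-fold above the lowest for FOSB and 8.41-fold for EGR1, against 3.78-fold for JUND, 2.77-fold for FOSL1, 2.54-fold for FOS, 2.10-fold for JUN, 2.05-fold for FOSL2, 1.87-fold for JUNB, 1.76-fold for IER2 and 1.66-fold for IER3. Expected counts per library ran from 15 to 238 for EGR1 and from 16 to 175 for FOSB, so counting error weighs more on these 2 genes than on the others, whose lowest library held 73 (FOS) or more.

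**Figure D1:**
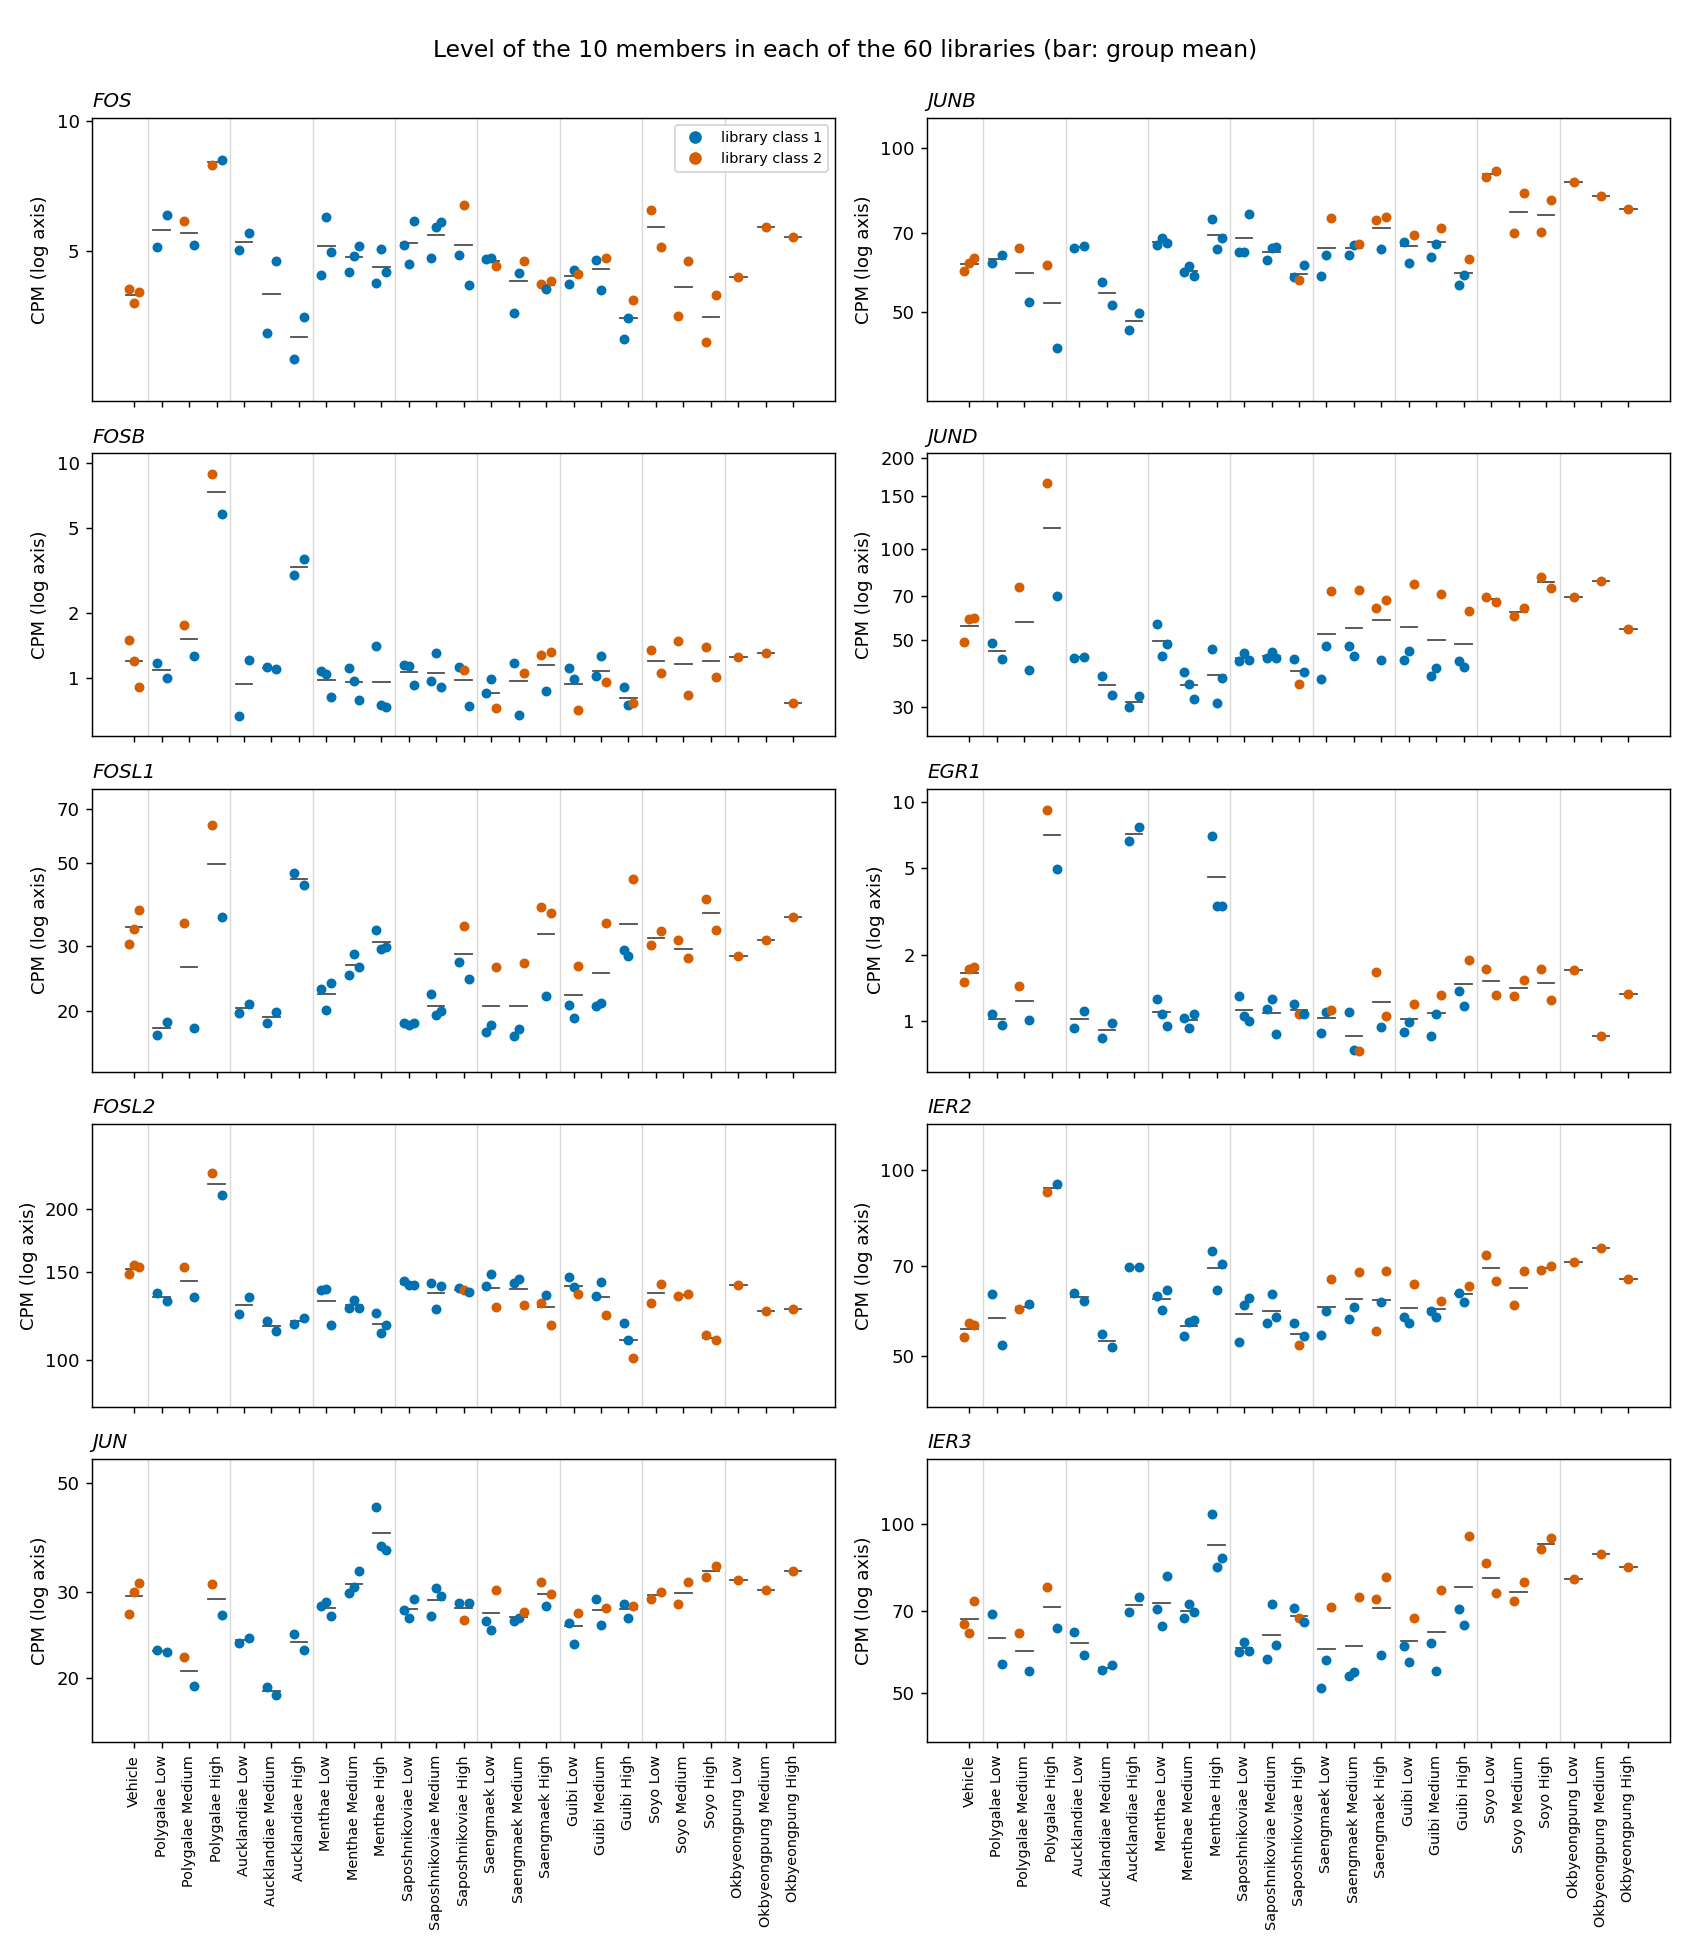
Level of each member in each of the 60 libraries, in CPM on a log axis, with groups along the x axis; points are libraries, marked by library class, and bars are group means. EGR1 stands apart in the high-dose groups of Polygalae Radix, Aucklandiae Radix and Menthae Herba, and FOSB in the first and second of these.

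The first question was which members differed between the high and the low dose of each extract. Of 70 tests (10 members in 7 extracts, edgeR quasi-likelihood, Benjamini-Hochberg over all 18396 genes, threshold 0.05), 13 were higher and 5 lower at the high dose. Polygalae Radix had 9 members past the threshold, 8 higher and 1 lower, where 57% of all genes passed (27.9% higher and 29.1% lower). Aucklandiae Radix had 5, 3 higher and 2 lower, against 18.4% of all genes (9.12% and 9.33%). Menthae Herba had 2, both higher, against 15.5% (6.07% and 9.45%). Guibi-tang had 1, lower, against 2.94% (0.962% and 1.97%), and Soyo-san 1, lower, against 1.24% (0.402% and 0.837%). Saposhnikoviae Radix and Saengmaek-san had 0 by edgeR and by DESeq2, against 0.0707% of all genes each. Without adjustment, 2 and 1 of their members had p under 0.05 by either tool. The median log2 fold change of the 10 members was 0.73 with Polygalae Radix, beside 0.04 for all genes, 0.08 beside 0.01 with Aucklandiae Radix, and 0.10 beside -0.01 with Menthae Herba.

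**Figure D2:**
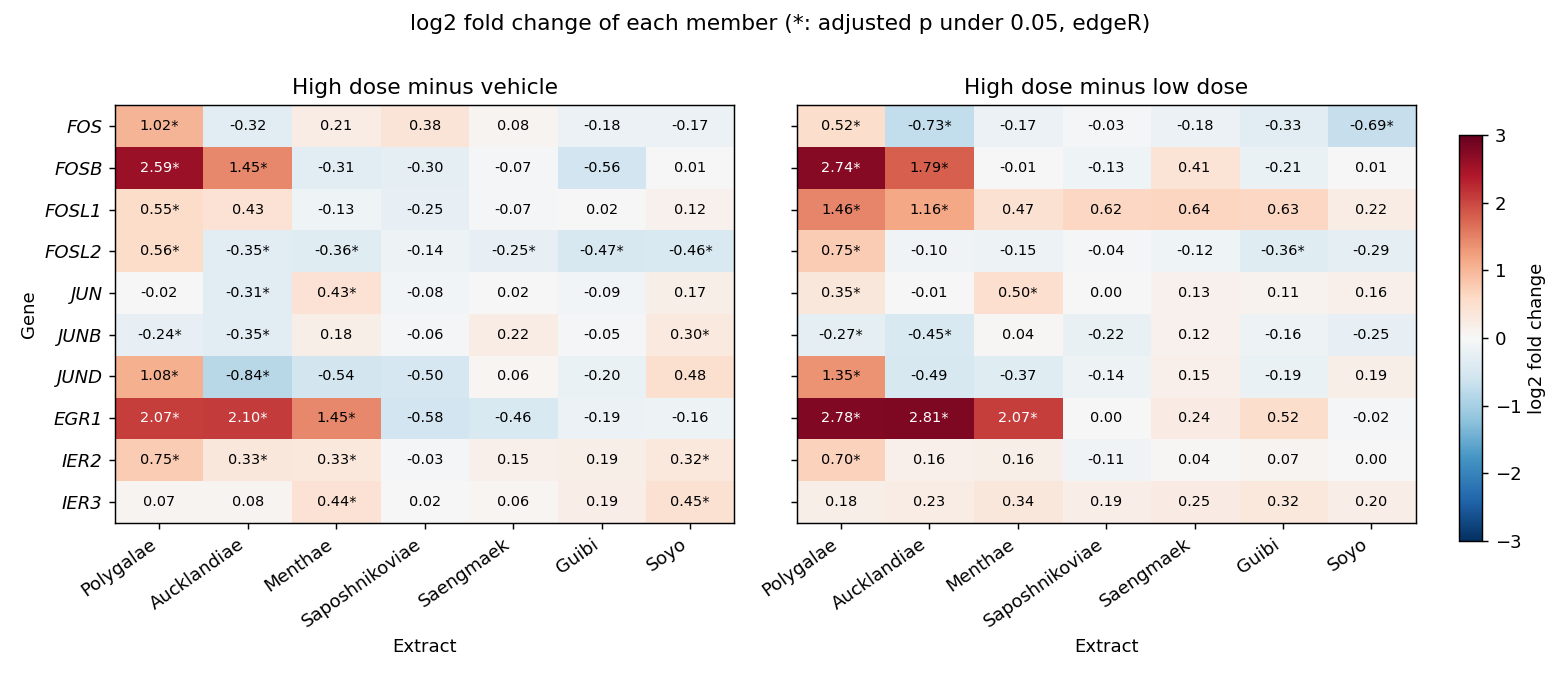
log2 fold change of each of the 10 members (y axis) in each of 7 extracts (x axis), by colour, with a star where the adjusted p was under 0.05 (edgeR). EGR1 carries a star in 3 extracts in both panels; under library totals without TMM the direction with Polygalae Radix turns for JUNB in both panels and for JUN against vehicle.

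Summed levels of cell type markers, scaled by library totals, moved with the high dose too. The epithelial sum is mostly KRT8, KRT18 and KRT7, with medians of 3481, 2699 and 2134 CPM over all libraries. EPCAM, KRT19 and CDH1 had medians of 5.07, 29.2 and 30.4 CPM, so the sum says little of them. The summed level of the 6 epithelial markers was 1590 and 1648 CPM at the high dose of Polygalae Radix and 8528 and 8716 at the low dose, with vehicle between 8381 and 8660. At the medium dose of Polygalae Radix it was 4821 and 5732 CPM. It lay between 6481 and 6626 CPM at the high dose of Aucklandiae Radix and between 6480 and 6781 at that of Menthae Herba, against 8283 or more at their low doses. In Guibi-tang it lay between 5973 and 6961 CPM at the high dose and between 7629 and 8483 at the low dose. The summed fibroblast markers lay at 18.1 and 21.7 CPM at the high dose of Polygalae Radix and at 21.3 and 23.9 at that of Aucklandiae Radix, against 31.1 to 39.0 at their low doses. The part of these shifts in the members' changes was not tested.

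EGR1 (ENSG00000120738, GRCh38 chr5:138465490-138469315, plus strand), a zinc finger transcription factor of the immediate early response, rose at the high dose of 3 extracts. In Polygalae Radix it read 9.23 and 4.97 CPM at the high dose and 1.08 and 0.966 at the low dose, a log2 fold change of 2.78 ± 0.296 (SE) or 6.86-fold (edgeR adjusted p = 1.04e-10). In Aucklandiae Radix it read 6.63 and 7.72 CPM against 0.929 and 1.11, 7.00-fold (log2 2.81 ± 0.295, adjusted p = 9.94e-10). In Menthae Herba it read 6.99, 3.37 and 3.35 CPM against 1.26, 1.08 and 0.955, 4.19-fold (log2 2.07 ± 0.244, adjusted p = 1.24e-08). No high-dose library of these 3 extracts overlapped any other library of the series, where EGR1 lay between 0.735 and 1.9 CPM. The medium dose showed none of this, with 1.45 and 1.01 CPM in Polygalae Radix, 0.841 and 0.983 in Aucklandiae Radix and 1.03, 0.933 and 1.08 in Menthae Herba. In the other 4 extracts the change of EGR1 from low to high dose lay between -0.02 and 0.52 on the log2 scale and did not pass the threshold. The 95% intervals of these changes reached up to 0.56 in Saposhnikoviae Radix, 0.80 in Saengmaek-san, 1.05 in Guibi-tang and 0.65 in Soyo-san. The 3 calls held whichever library was left out, with log2 values of 2.27 to 3.15, 2.68 to 2.94 and 1.62 to 2.25.

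FOSB (ENSG00000125740, chr19:45467995-45475179, plus strand), the Fos protein whose short splice form is known to persist in cells, rose with 2 of those 3 extracts. It read 8.87 and 5.77 CPM at the high dose of Polygalae Radix and 1.18 and 0.999 at the low dose, 6.66-fold (log2 2.74 ± 0.287, edgeR adjusted p = 7.59e-11). In Aucklandiae Radix the high dose gave 3.01 and 3.57 CPM and the low dose 0.669 and 1.22 (log2 1.79 ± 0.297, adjusted p = 1.24e-05). With neither extract did the groups overlap. In Menthae Herba, where EGR1 rose, FOSB read 1.41, 0.752 and 0.732 CPM at the high dose and 1.07, 1.04 and 0.818 at the low dose, which overlap, and the interval of the change ran from -0.56 to 0.54 on the log2 scale. Outside the high doses of Polygalae Radix and Aucklandiae Radix, no library exceeded 1.76 CPM.

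**Figure D3:**
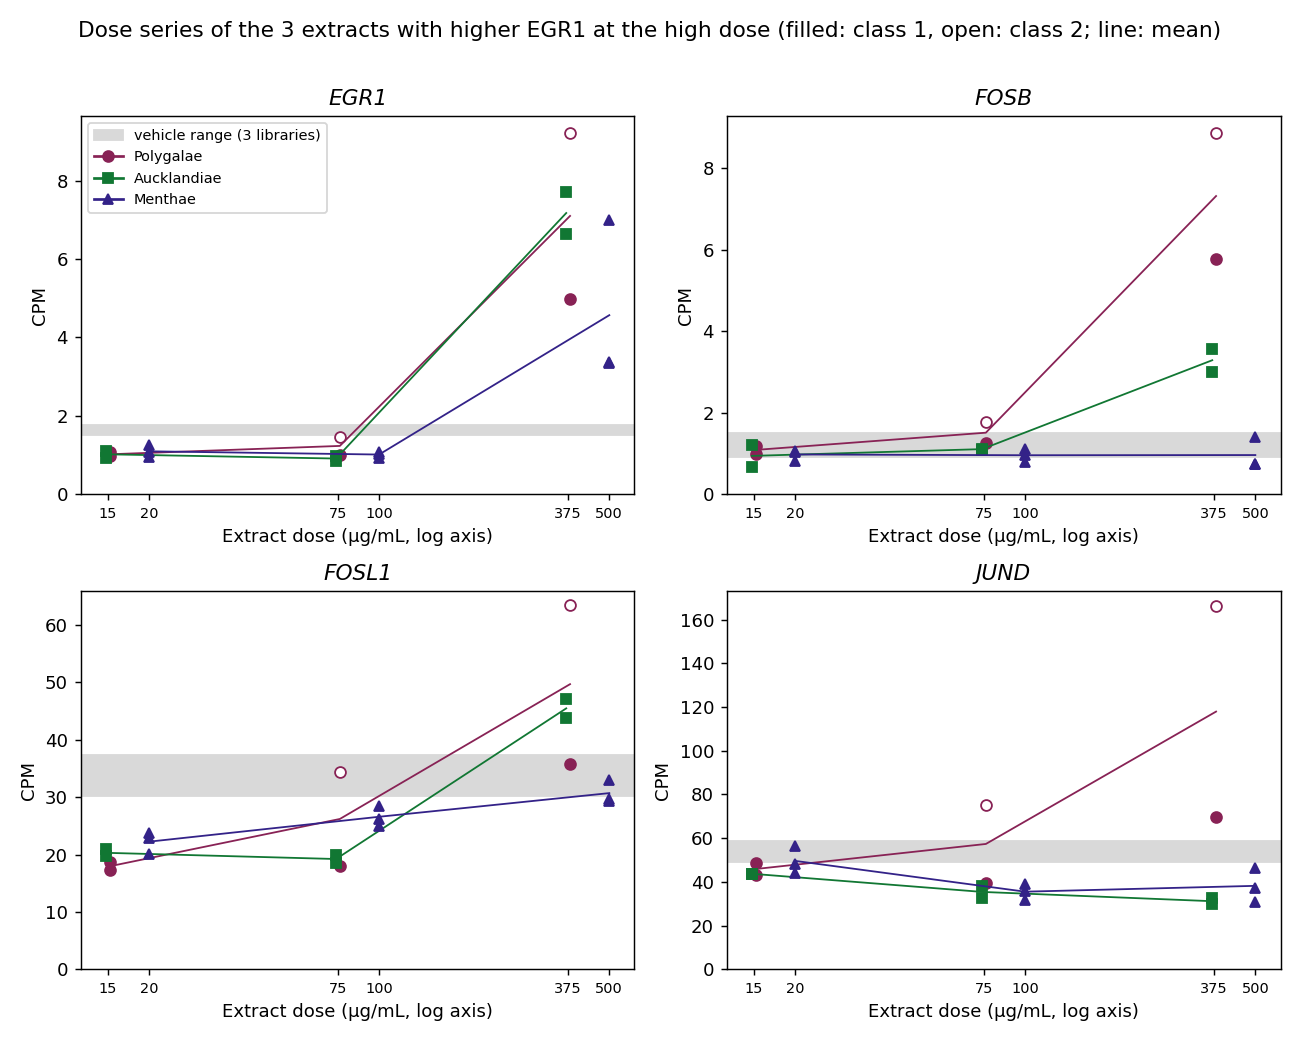
CPM of EGR1, FOSB, FOSL1 and JUND against extract dose (µg/mL, log axis) in Polygalae Radix, Aucklandiae Radix and Menthae Herba; points are libraries, filled for class 1 and open for class 2, lines join group means and the grey band spans the 3 vehicle libraries. EGR1 is higher at the high dose of all 3 extracts, and FOSB at that of Polygalae Radix and Aucklandiae Radix.

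FOS (ENSG00000170345, chr14:75278774-75282230, plus strand), the founding member of the family, moved in opposite directions in the extracts where FOSB rose. It read 7.91 and 8.12 CPM at the high dose of Polygalae Radix and 5.10 and 6.06 at the low dose, a log2 fold change of 0.52 ± 0.167 (edgeR adjusted p = 0.00711). In Aucklandiae Radix it read 2.80 and 3.50 against 5.01 and 5.49 and fell by 0.73 on the log2 scale (SE 0.178, adjusted p = 0.00208). The groups did not overlap in either extract. The Polygalae Radix call was lost without low dose replicate 2 (log2 0.38, adjusted p = 0.12) and in a fit of the compared groups alone (0.51, 0.0624), and the Aucklandiae Radix call without high dose replicate 2 (-0.59, 0.0743). In Soyo-san FOS read 3.07 and 3.96 CPM at the high dose and 6.22 and 5.11 at the low dose, a log2 fold change of -0.69 (adjusted p = 0.0491) that no longer passed when any 1 of the 4 libraries was left out (-0.88 to -0.52), under library totals (-0.70, 0.0618) or in a fit of the compared groups alone (-0.68, 0.17).

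FOSL1 (ENSG00000175592, chr11:65892049-65900573, minus strand) rose in Polygalae Radix and Aucklandiae Radix and was higher in class 2 than in class 1 libraries. It read 63.5 (class 2) and 35.8 CPM (class 1) at the high dose of Polygalae Radix and 17.2 and 18.7 (both class 1) at the low dose, a log2 fold change of 1.46 ± 0.266 (edgeR adjusted p = 9.88e-06) that came to 0.98 between the class 1 libraries. In Aucklandiae Radix, all class 1, the high dose gave 47.2 and 43.8 CPM and the low dose 19.7 and 20.9 (log2 1.16 ± 0.263, adjusted p = 0.00102). The high dose lay above the low dose in every library of Menthae Herba (33.0, 29.4 and 29.7 against 22.8, 20.1 and 23.8 CPM), of Saposhnikoviae Radix (27.0, 33.8 and 24.3 against 18.5, 18.3 and 18.5) and of Guibi-tang (29.1, 28.1 and 45.4 against 20.7, 19.1 and 26.4), with log2 differences of 0.47, 0.62 and 0.63 that did not pass. With class as a covariate FOSL1 passed in 6 of the 7 extracts, at 1.09 in Polygalae Radix, 1.16 in Aucklandiae Radix, 0.47 in Menthae Herba, 0.39 in Saposhnikoviae Radix (adjusted p = 0.0434), 0.41 in Saengmaek-san (0.0205) and 0.61 in Guibi-tang. In Soyo-san it was 0.22 (0.307), where the high dose (33.1 and 40.1 CPM) also lay above the low dose (30.1 and 32.9) in every library.

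FOSL2 (ENSG00000075426, chr2:28392448-28417312, plus strand), also called FRA2, rose in Polygalae Radix and fell in Guibi-tang. It read 236 and 213 CPM at the high dose of Polygalae Radix, above every other library of the series, and 136 and 131 at the low dose (log2 0.75 ± 0.0836, edgeR adjusted p = 3.34e-10). In Guibi-tang the high dose gave 118, 109 and 101 CPM and the low dose 146, 140 and 135, a log2 fold change of -0.36 ± 0.0684 (adjusted p = 0.000665). The call was lost under library totals (-0.30, 0.0511) and in a fit of the compared groups alone (-0.36, 0.0727). The epithelial marker sum lay lower at this high dose too (5973 to 6961 CPM against 7629 to 8483), and its part in the change was not tested. In Soyo-san it read 112 and 109 CPM against 130 and 141, a difference of -0.29 that did not pass (adjusted p = 0.0728).

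Among the Jun genes each had its own pattern. JUN (ENSG00000177606, chr1:58780788-58784327, minus strand), the main partner of the Fos proteins, rose in Menthae Herba, from 28.1, 28.6 and 26.8 CPM at the low dose to 44.7, 37.2 and 36.5 at the high dose (log2 0.50 ± 0.0748, edgeR adjusted p = 1.69e-06). The groups did not overlap, and the value stayed between 0.41 and 0.56 whichever library was left out. In Polygalae Radix JUN read 31.1 and 27.0 CPM against 22.8 and 22.6 (log2 0.35 ± 0.0933, adjusted p = 0.00141), a call lost without high dose replicate 2 (0.24, 0.0736), without the low-count filter (0.28, 0.0565), in a fit of the compared groups alone (0.34, 0.0721) and within class 1 (0.23, 0.0506). In Aucklandiae Radix it read 24.6 and 22.9 against 23.6 and 24.2 CPM, which overlap, with an interval from -0.20 to 0.18.

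JUNB (ENSG00000171223, chr19:12791496-12793315, plus strand), known to oppose JUN at some promoters, fell in Aucklandiae Radix, from 65.5 and 66.1 to 46.4 and 49.8 CPM (log2 -0.45 ± 0.111, edgeR adjusted p = 0.00255). That call was lost without high dose replicate 2 (-0.40, 0.0502). In Polygalae Radix JUNB read 61.0 and 42.8 CPM against 61.5 and 63.6, a fall of 0.27 under TMM scaling (adjusted p = 0.0348) and no fall when libraries were scaled by their totals alone (0.01). Without high dose replicate 3 the value was -0.06 (0.721) and without low dose replicate 3 it was -0.27 (0.0993). In a fit of the compared groups alone it was -0.29 (0.242). Exons of JUNB share 259 bases with HOOK2 on the other strand, and the strand setting of the counting is not known here.

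JUND (ENSG00000130522, chr19:18279760-18281622, minus strand), usually the steadily expressed Jun gene, rose in Polygalae Radix with a large difference between the 2 libraries. It read 166 (class 2) and 69.7 CPM (class 1) at the high dose and 48.7 and 43.2 (both class 1) at the low dose, without overlap (log2 1.35 ± 0.314, edgeR adjusted p = 0.000292). Without high dose replicate 2 the value was 0.59 and did not pass. Between the class 1 libraries, with a mean for each group and class fitted over all libraries, it was 0.59 as well. In Aucklandiae Radix JUND read 29.9 and 32.5 CPM against 43.7 and 43.8, a difference of -0.49. It did not pass in the main fit (edgeR adjusted p = 0.336) and passed when the groups were split by class (0.00379). In Menthae Herba JUND read 46.6, 30.8 and 37.3 against 56.5, 44.1 and 48.3 CPM, which overlap, at -0.37 (0.397 in the main fit, 0.00726 with groups split by class).

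In the main fit IER2 passed in 1 extract and IER3 in none. IER2 (ENSG00000160888, chr19:13150415-13154908, plus strand), an immediate early nuclear protein, read 92.1 and 94.9 CPM at the high dose of Polygalae Radix, above every other library, and 63.0 and 52.0 at the low dose (log2 0.70 ± 0.0945, edgeR adjusted p = 2.93e-08). It passed in no other extract in the main fit. Under library totals it passed in Aucklandiae Radix (0.26, 0.045) and Menthae Herba (0.22, 0.041). In a fit of the compared groups alone it passed in Aucklandiae Radix (0.16, 0.0319). IER3 (ENSG00000137331, chr6:30743199-30744554, minus strand), a survival-related target of NF-κB and ERK signalling, passed in no extract in the main fit. In Menthae Herba it read 104, 83.6 and 86.9 CPM against 70.4, 65.8 and 80.7, without overlap (log2 0.34 ± 0.132, adjusted p = 0.0754). It passed there with class as a covariate (0.34, 0.00353), within class 1 (0.34, 0.00214) and without the low-count filter (0.34, 0.00132). In Guibi-tang it passed with class as a covariate (0.31, 0.0292) and without the filter (0.31, 0.019). Under library totals it passed in Menthae Herba (0.40, 0.00649), Guibi-tang (0.37, 0.0474) and Polygalae Radix (0.47, 0.00201). In fits of the compared groups alone it passed in Menthae Herba (0.34, 0.0269) and Aucklandiae Radix (0.22, 0.0176). Exons of IER2 share 946 bases with the antisense gene ENSG00000267598 and those of IER3 share 359 with IER3-AS1, so part of these counts may belong to those genes.

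At the medium dose 0 of 70 member tests against the low dose passed by edgeR or DESeq2, and 7 by edgeR and 8 by DESeq2 had an unadjusted p under 0.05. The background was low as well, with 11.8% of all genes called in Polygalae Radix, 0.174% in Menthae Herba, 0.0109% in Soyo-san, 0.00544% in Aucklandiae Radix and 0% in the other 3 extracts. In Polygalae Radix the medium dose gave FOSB 1.76 and 1.26 CPM and FOS 5.86 and 5.14. Its FOSL1 (34.4 and 18 CPM) and JUND (75 and 39.7 CPM) differed between the class 2 and the class 1 library in the same direction as at the high dose.

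The make-up of each family, per exon length, shifted with these changes. In vehicle cells FOSL2 made up 52.5% ± 2.04 of the Fos family level (SD, n = 3) and FOSL1 43.9% ± 2.35, with FOS at 3.02% and FOSB at 0.540%. In Aucklandiae Radix FOSL1 went from 35.3% at the low dose (35 and 35.5%) to 56.8% at the high dose (55.4 and 58.3%), and became the more abundant of the 2. The mean share of FOSL1 also exceeded that of FOSL2 at the high dose of Soyo-san (53.5 against 42.9%) and Okbyeongpung-san (49.3 against 46%, 1 library). In Guibi-tang it was 51.7 against 44.7%, with overlapping library shares (46.6 to 61% against 35.6 to 50%). At the low dose of these 3 extracts FOSL2 had the larger share. In Polygalae Radix FOSB reached 2.12% at the high dose against 0.652% at the low dose, while the summed Fos level was 61.5 against 30.1 CPM per kb. JUND made up 61.2% of the Jun family at the high dose of Polygalae Radix (54.6 and 67.8%), against 37.7% at the low dose and 41.5% in vehicle. JUN made up 16.0% ± 0.756 at the high dose of Menthae Herba against 11.0% ± 0.565 at the low dose (n = 3 each). These shares are descriptions and were not tested.

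**Figure D4:**
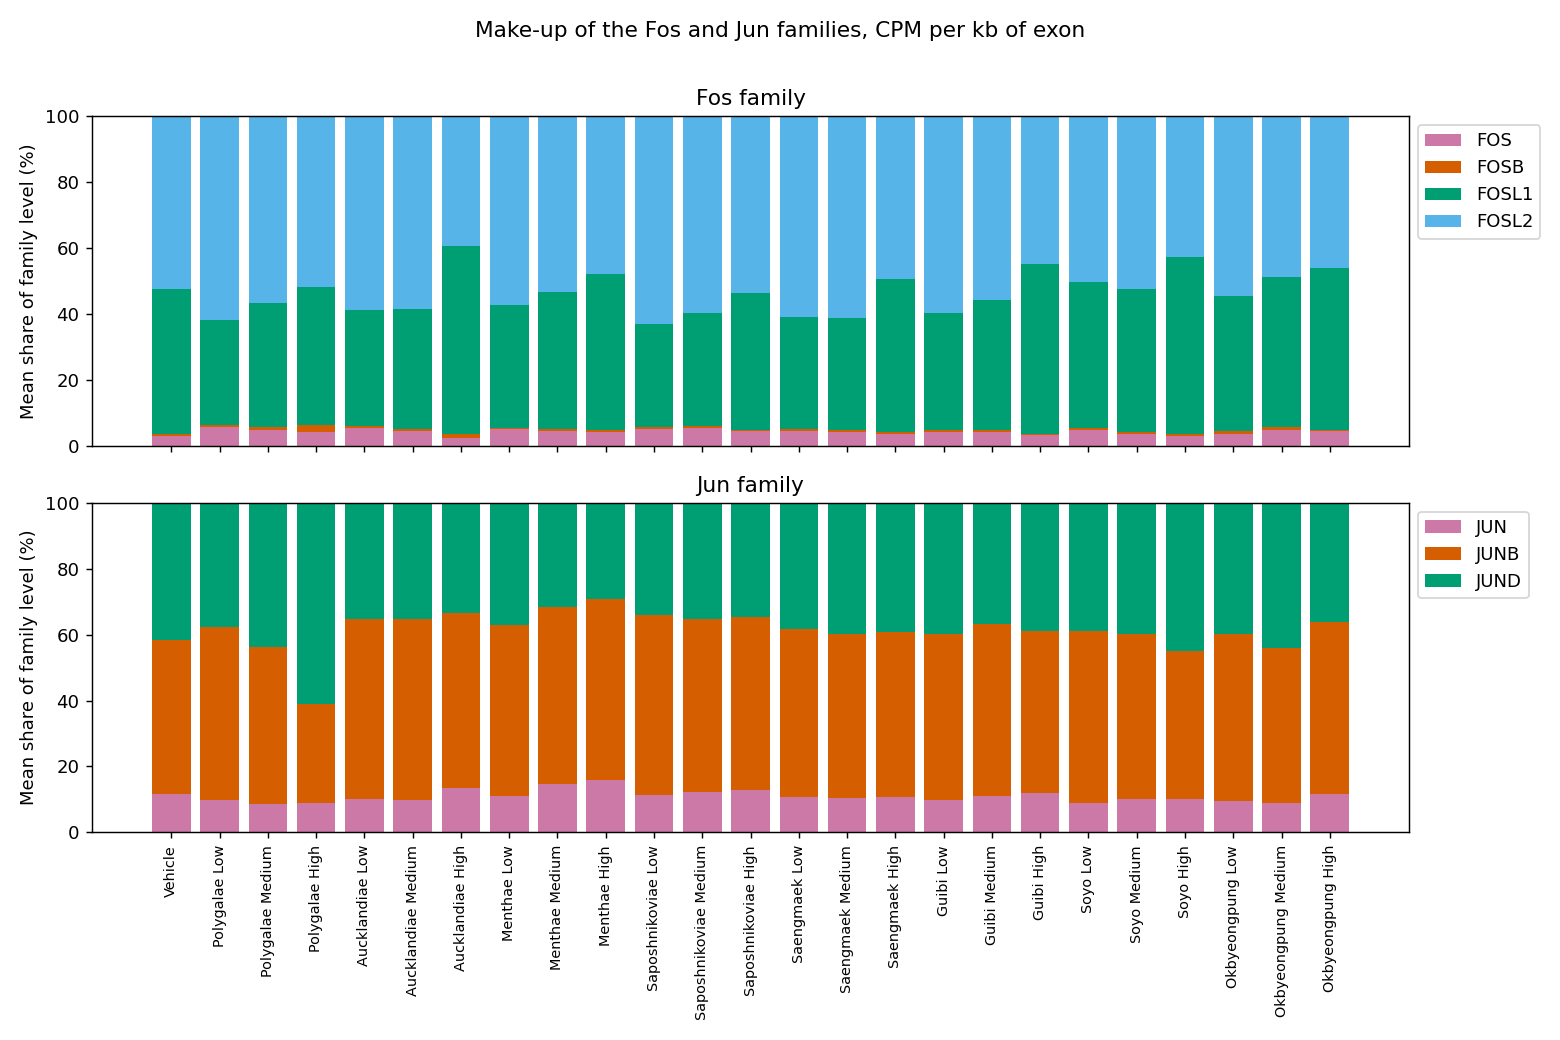
Mean share (%) of each gene in the summed level of its family, in CPM per kb of exon, for each group. The upper panel stacks FOS, FOSB, FOSL1 and FOSL2 and the lower panel JUN, JUNB and JUND. FOSL1 takes 56.8% of the Fos family at the high dose of Aucklandiae Radix and JUND 61.2% of the Jun family at the high dose of Polygalae Radix. The mean share of FOSL1 exceeds that of FOSL2 at the high dose of Soyo-san, Guibi-tang and Okbyeongpung-san as well.

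The second question was how each high dose compared with vehicle. Of 70 member tests, 17 were higher and 9 lower (edgeR). Polygalae Radix had 8 members past the threshold (59.6% of all genes), Aucklandiae Radix 7 (35.7%), Menthae Herba 5 (29.6%), Soyo-san 4 (28.6%), Guibi-tang 1 (9.56%) and Saengmaek-san 1 (3.79%). Saposhnikoviae Radix had 0 by edgeR and DESeq2 (1.04%), with 3 and 2 members at an unadjusted p under 0.05. These comparisons share the 3 vehicle libraries.

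EGR1 read 1.5, 1.73 and 1.78 CPM in vehicle and was higher by 2.07 ± 0.248 on the log2 scale in Polygalae Radix, by 2.10 ± 0.245 in Aucklandiae Radix and by 1.45 ± 0.231 in Menthae Herba, with no overlap of libraries. FOSB read 1.5, 1.20 and 0.906 CPM in vehicle and was higher by 2.59 ± 0.250 in Polygalae Radix and by 1.45 ± 0.258 in Aucklandiae Radix. FOS, at 4.07, 3.77 and 4.00 CPM in vehicle, was higher by 1.02 ± 0.155 in Polygalae Radix alone, and IER2, at 53.7, 56.5 and 56, was higher in 4 extracts, by 0.75 in Polygalae Radix, 0.33 in Aucklandiae Radix, 0.33 in Menthae Herba and 0.32 in Soyo-san. The Soyo-san call of IER2 was lost without high dose replicate 2 (0.31, adjusted p = 0.051).

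FOSL2 was the member most often lower than vehicle. It read 149, 155 and 153 CPM in vehicle and was lower at the high dose of 5 of 7 extracts, by log2 values of -0.35 in Aucklandiae Radix, -0.36 in Menthae Herba, -0.25 in Saengmaek-san, -0.47 in Guibi-tang and -0.46 in Soyo-san. In Polygalae Radix it was higher by 0.56. The Saengmaek-san call was lost without any 1 vehicle library or without high dose replicate 3 (-0.20, adjusted p = 0.188), and the Aucklandiae Radix call under scaling by library totals (-0.19, 0.131). The Saengmaek-san call was also lost under library totals (-0.25, 0.135), without the low-count filter (-0.26, 0.0556) and in a fit of the compared groups alone (-0.26, 0.313).

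JUN, JUNB, JUND and IER3 differed from vehicle in 2 or 3 extracts each, and FOSL1 in 1, Polygalae Radix. In Aucklandiae Radix FOSL1 read 43.8 and 47.2 CPM against 30.3 to 37.3 in vehicle, without overlap, and did not pass in the main fit. It passed with class as a covariate (1.08, edgeR adjusted p = 1.81e-11) and without the low-count filter (0.44, 0.000204). FOSL1 also passed there under library totals (0.59, 0.015) and in a fit of the compared groups alone (0.43, 0.000104). JUN was higher in Menthae Herba (log2 0.43) and lower in Aucklandiae Radix (-0.31), the latter lost without high dose replicate 3 (-0.25, adjusted p = 0.0866) or under library totals (-0.15, 0.124). JUNB was higher in Soyo-san (0.30) and lower in Aucklandiae Radix (-0.35), and IER3 was higher in Menthae Herba (0.44) and Soyo-san (0.45). JUND was lower in Aucklandiae Radix (-0.84, adjusted p = 0.0241), where vehicle and extract are of different classes, and the value was -0.14 (0.568) with class as a covariate. That JUND call was also lost without any 1 of 4 of the 5 libraries, Vehicle replicate 1 being the exception (-0.89 to -0.78). The Aucklandiae Radix call of JUNB was lost under library totals (-0.19, 0.0788) and with class as a covariate (-0.18, 0.122). These JUNB and IER3 calls were each lost without at least 1 library: JUNB without Vehicle replicate 1 (0.27, 0.072) or high dose replicate 2 of Soyo-san (0.19, 0.344) and without high dose replicate 2 of Aucklandiae Radix (-0.30, 0.0962), IER3 without high dose replicate 1 of Menthae Herba (0.33, 0.0856) and without 4 of the 5 libraries in Soyo-san (0.41 to 0.48).

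In Polygalae Radix 3 further values against vehicle moved with single libraries. JUND was higher by 1.08 (edgeR adjusted p = 0.000963), and by 0.32 (0.414) without high dose replicate 2. FOSL1 was higher by 0.55 (0.0386), by 0.08 (0.824) without that library, and it also missed the threshold without Vehicle replicate 1 (0.48, 0.111) or 2 (0.55, 0.0729), while in vehicle it read 30.3, 33.3 and 37.3 CPM and overlapped the high dose. JUNB was lower by a log2 value of -0.24 (0.0386) under TMM scaling, at -0.02 (0.875) without high dose replicate 3 and at 0.10 (0.341) under library totals. It also missed the threshold without Vehicle replicate 2 (-0.24, 0.0678) or 3 (-0.22, 0.0892), with class as a covariate (-0.17, 0.0777), within class 2 (-0.02, 0.893) and in a fit of the compared groups alone (-0.26, 0.168). The FOSL1 call was lost with DESeq2 (0.55, 0.0509) and in a fit of the compared groups alone (0.54, 0.0867). JUN did not pass under TMM scaling (-0.02) and was higher under library totals (0.33, 0.000323). Scaling by totals moved the median of all genes in this comparison to 0.40, from 0.05 under TMM, so it shifts every gene.

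At the lower doses few members differed from vehicle. At the medium dose 2 of 70 tests were higher and 6 lower. The share of all genes that passed there was 18.3% in Polygalae Radix, 5.59% in Aucklandiae Radix, 5.54% in Menthae Herba, 7.94% in Saposhnikoviae Radix, 0.391% in Saengmaek-san, 0.582% in Guibi-tang and 0.0652% in Soyo-san. At the low dose 4 were higher and 6 lower, where the share in the same order was 6.39%, 7.24%, 13.1%, 4.1%, 0.522%, 0.261% and 10.7%. JUN was lower at the medium dose of Polygalae Radix (22.1 and 19.3 CPM, log2 -0.51) and of Aucklandiae Radix (19.2 and 18.5 CPM, -0.64), and these were the calls at the medium and low dose that held whichever library was left out. Each other call was lost without at least 1 library. FOS was higher at the medium dose of Polygalae Radix (0.47) and Saposhnikoviae Radix (0.46) and at the low dose of Polygalae Radix (0.50) and Soyo-san (0.52). FOSL2 was lower at the medium dose of Aucklandiae Radix (-0.38) and Menthae Herba (-0.24) and at their low doses (-0.24 and -0.21), and these 4 values did not pass under library totals (-0.30, -0.16, -0.18 and -0.16). JUN was lower at the low dose of Polygalae Radix (-0.37) and Aucklandiae Radix (-0.30), and IER2 higher at that of Soyo-san (0.32). FOSL1 was lower at the medium dose of Aucklandiae Radix (-0.81) and Saposhnikoviae Radix (-0.71), at -0.16 and -0.06 with class as a covariate, where neither passed. It was also lower at the low dose of Polygalae Radix (-0.90) and Saposhnikoviae Radix (-0.87), all class 1 libraries set against class 2 vehicle, and came to -0.26 and -0.22 with class as a covariate, where neither passed. JUNB was higher at the low dose of Soyo-san (88.7 and 90.9 CPM, 0.55 above vehicle), the highest JUNB libraries of the series, a call lost without low dose replicate 1 (adjusted p = 0.0874).

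The class difference itself was measured in the groups that hold both classes. FOSL1 was higher in class 2 by 0.64 ± 0.0440 and JUND by 0.69 ± 0.0728 on the log2 scale (edgeR adjusted p = 3.31e-15 and 1.99e-10). EGR1 (0.40), IER3 (0.32), JUNB (0.17) and JUN (0.09) were higher too, and FOS, FOSB, FOSL2 and IER2 did not pass. These are 6 of 10 members, where 48% of all genes passed (25% higher and 23% lower). The GC content of the longest transcript was 69.7% in JUND, above 99.5% of the genes tested. It was 64.9% in JUNB (above 95.9%), 61.7% in IER2 (above 89.5%) and 60% in FOSL1 (above 84.9%). In the other members it was 58.5% in IER3, 57.7% in FOSB, 56.7% in JUN, 55.4% in EGR1, 53.3% in FOSL2 and 52.6% in FOS. The order by GC content is not the order by class difference, and the part of GC content was not tested. Among class 1 libraries alone EGR1 was 2.27 higher and FOSB 2.39 higher at the high than at the low dose of Polygalae Radix, where the high dose is 1 library that is assumed to vary like the others.

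**Figure D5:**
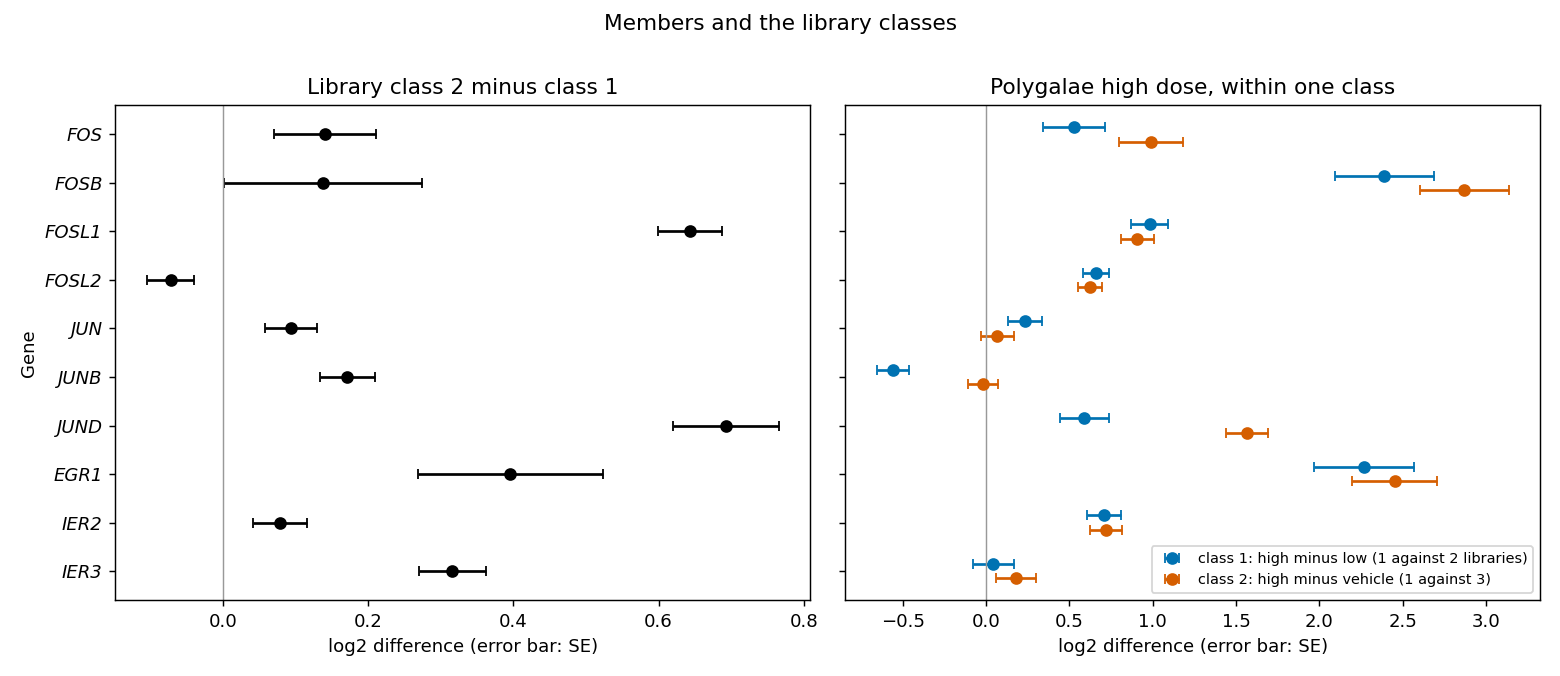
Left, the log2 difference of each member between library class 2 and class 1 within groups holding both; right, the log2 change of each member at the high dose of Polygalae Radix within 1 class, with standard errors as bars. FOSL1 and JUND lie 0.64 and 0.69 higher in class 2, and EGR1 and FOSB are higher at the high dose in class 1 (1 library against the low dose) and in class 2 (1 library against vehicle, which is another library set).

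The third question was whether the 2 extracts of a library set differed. At the high dose Polygalae Radix exceeded Aucklandiae Radix in 6 of 10 members, where 58.1% of all genes passed (28.1% higher and 29.9% lower), and the doses were close but not equal (380 and 370 µg/mL). The log2 differences were 1.34 ± 0.175 for FOS, 1.14 ± 0.259 for FOSB, 0.91 ± 0.0839 for FOSL2, 0.29 for JUN, 1.91 ± 0.321 for JUND and 0.42 for IER2. EGR1 did not separate the 2 extracts, with a difference of -0.03 and a 95% interval from -0.54 to 0.48. FOSL1 differed by 0.12 over all libraries and by -0.36 (adjusted p = 0.0057) among class 1 libraries. The JUN difference was lost without high dose replicate 2 of Polygalae Radix (0.17, 0.193) or high dose replicate 3 of Aucklandiae Radix (0.21, 0.122), without the low-count filter (0.22, 0.156), in a fit of the compared groups alone (0.29, 0.094) and within class 1 (0.17, 0.152), and the JUND difference was 1.15 without high dose replicate 2 of Polygalae Radix.

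Menthae Herba and Saposhnikoviae Radix, both at 500 µg/mL, differed in 5 members, where 16.2% of all genes passed (6.27% higher and 9.9% lower). Menthae Herba was higher in EGR1 by 2.03 ± 0.243 (3.35 to 6.99 CPM against 1.07 to 1.20), JUN by 0.51 ± 0.0748, IER2 by 0.36 and IER3 by 0.42, and lower in FOSL2 (-0.22). The EGR1, JUN and IER2 differences held whichever library was left out. The FOSL2 and IER3 differences were lost without any 1 of 4 and of 3 libraries, with values of -0.22 to -0.19 and 0.32 to 0.41 in those fits. The FOSL2 difference was also lost under library totals (-0.17, 0.208) and without the low-count filter (-0.22, 0.0814). Guibi-tang and Saengmaek-san, also at 500 µg/mL, differed in 0 members by edgeR (2 at an unadjusted p under 0.05) and in 1 by DESeq2, where 2.2% of all genes passed.

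The change from low to high dose was also compared between the extracts of a set. It was larger in Polygalae Radix than in Aucklandiae Radix for FOS (1.26 ± 0.244), FOSL2 (0.85 ± 0.118), JUN (0.36), JUND (1.84 ± 0.446) and IER2 (0.54), 5 of 10 members where 45.9% of all genes passed (20.5% larger and 25.3% smaller). It did not differ detectably for EGR1 (-0.03, interval -0.88 to 0.82), and for FOSB the difference of 0.94 had an adjusted p of 0.0611. The JUN value was lost without any 1 of 5 of the 8 libraries (0.25 to 0.34), without the low-count filter (0.29, 0.258), in a fit of the compared groups alone (0.37, 0.0508) and within class 1 (0.24, 0.134), and the JUND value was 1.08 (adjusted p = 0.0462) without high dose replicate 2 of Polygalae Radix. Between Menthae Herba and Saposhnikoviae Radix, EGR1 (2.06 ± 0.368) and JUN (0.50 ± 0.106) differed, 2 of 10 members where 6.43% of all genes passed (1.9% larger and 4.53% smaller). Between Guibi-tang and Saengmaek-san 0 members passed by edgeR and DESeq2 (2 unadjusted by each), against 0.451% of all genes.

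Genes around AP-1 were followed in 5 lists. Of the other AP-1 dimer partners, 10 of 12 were tested. From low to high dose of Polygalae Radix 6 rose and 0 fell, with a median of 0.45 beside 0.04 for all genes, and ATF3, a stress-induced partner, rose by 1.5 and the small Maf gene MAFK by 1.11. In Aucklandiae Radix 2 rose and 1 fell (ATF3 0.82, MAFK -0.71), and in Menthae Herba 4 rose and 1 fell (ATF3 0.90, MAF 0.68). ATF3 was thus among the named partners in all 3 extracts in which EGR1 rose.

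The other immediate early genes, 21 of 24 tested, split by extract. In Polygalae Radix 17 rose and 2 fell, led by the orphan nuclear receptor genes NR4A3 (log2 2.96) and NR4A2 (2.83). In Aucklandiae Radix 5 rose and 4 fell, with ARC at 2.01 and NR4A3 at -1.38. In Menthae Herba 1 rose and 8 fell, with NR4A1 at -1.20 and NR4A3 at -1.10. EGR1 thus rose where NR4A3 rose (Polygalae Radix) and where it fell (Aucklandiae Radix and Menthae Herba). In Guibi-tang 0 rose and 4 fell and in Soyo-san 0 rose and 3 fell, with NR4A1 and NR4A3 named in both (-1.06 and -1.14, and -1.24 and -1.11).

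Of the MAP kinase feedback inhibitors and ERK output genes, all 16 tested, 14 rose and 0 fell in Polygalae Radix, with a median of 0.87, and the MAP kinase phosphatase genes DUSP8 and DUSP2 rose by 3.08 and 2.60. In Menthae Herba 5 rose and 1 fell, with the ERK phosphatase gene DUSP6 at 0.75 and PHLDA1 at 0.71, and in Aucklandiae Radix 2 rose and 2 fell (PHLDA1 0.66, DUSP8 -0.78). Of 21 upstream factors and kinases, 6 rose and 9 fell in Polygalae Radix (RPS6KA1 -1.01, MAPK7 0.87), 2 rose and 0 fell in Aucklandiae Radix (ELK3 0.54, EGFR 0.40), and 2 rose and 1 fell in Menthae Herba (EGFR -0.37, ELK1 0.23). SRF, ELK1 and CREB1 are in this list, and their messages say nothing of their activity.

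Genes known as AP-1 targets, 13 of 20 tested, did not move together. In Polygalae Radix 3 rose and 6 fell, with a median of -0.27, and PLAU (urokinase) fell by 1.65. In Aucklandiae Radix 4 rose and 1 fell, with the cytokine gene IL11 at -2.20. In Menthae Herba 3 rose and 3 fell, with the chemokine gene CXCL8 at 1.11 and SPP1 (osteopontin) at -0.61. The background for the counts in all 5 lists is the share of all genes called, which was 57% in Polygalae Radix, 18.4% in Aucklandiae Radix, 15.5% in Menthae Herba, 2.94% in Guibi-tang and 1.24% in Soyo-san.

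Over the means of the 22 fitted groups, a description with no test, EGR1 was most like SNPH (Pearson r 0.93), MAFF (0.91) and RNF19B (0.91) among genes averaging at least 2 on the log2 CPM scale. Without the high dose of Polygalae Radix, over 21 groups, the most like were GADD45A (0.94), SNPH (0.89) and PHLDA1 (0.89). FOS was most like TSC22D1 (0.93) and RGS2 (0.88), which also led without that group (0.89 and 0.82). FOSB was most like ZNF337 (0.93), FOSL1 RNF19B (0.88), FOSL2 ELL2 (0.94), JUN GNAZ (0.82), JUNB MPST (0.93), JUND CEACAM19 (0.95), IER2 MAP3K10 (0.93) and IER3 LARP6 (0.85). The leading gene changed for FOSB, FOSL1, FOSL2, JUN, JUND, EGR1 and IER3 when that group was left out. Among the members themselves EGR1 was closest to FOSL1 (0.79) and FOSB (0.78), and FOS to FOSL2 (0.75), over 22 groups that share library sets and classes.

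Okbyeongpung-san, with 1 library per dose, has no replicate check, and its levels are set beside the vehicle libraries of the same class. Of 30 member ratios to the vehicle mean, 0 reached 2-fold, where 3.4%, 4.36% and 3.28% of all genes did at the high, medium and low dose. JUNB read 77.2, 81.6 and 86.8 CPM at the high, medium and low dose, and IER3 83.8, 88.2 and 79.7, above every vehicle library at all 3 doses. FOS (5.39, 5.69 and 4.34 CPM) and IER2 (66.7, 74.7 and 71.0) lay above vehicle at all 3 doses as well, and FOSL2 below (126, 125 and 141). Vehicle is another library set, and the share of all genes outside its range at all 3 doses was not computed. EGR1 read 1.34, 0.853 and 1.71 CPM, below every vehicle library at the high and medium dose and inside their range at the low dose.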

How the data were processed

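RNA from 60 libraries of A549 cells was measured with a directional mRNA library kit and paired reads, per the labels' protocols. The authors deposited 1 table of expected counts for Ensembl genes. The submitters' processing notes name RSEM 1.3.3, STAR 2.7.3a, Trim Galore 0.6.5 and FastQC 0.11.9 and the build GRCh38 (hg38), while the annotation and strand setting were not stated. Of the values, 9.95% carry decimals, and all were rounded to whole counts. Symbols, positions and exon lengths come from GENCODE 29, and promoter windows from RefSeq (GRCh38.p14).

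Groups follow the labelled extract and dose. The 57 libraries of 22 groups with 2 or 3 libraries were fitted together with edgeR 4.0.16 in R 4.3.3 (filterByExpr, TMM, quasi-likelihood F-test, two-sided, 35 residual degrees of freedom). P-values were adjusted by the Benjamini-Hochberg method over 18396 genes within each of 41 contrasts, with a threshold of 0.05, and the procedure was tested on simulated data. A log2 fold change is given with its standard error (±). Alternatives were DESeq2 1.42.0 size factors and its Wald test, no filter, a 2-fold threshold, the replicate number as a block, library class as a covariate, groups split by class, the compared groups alone, each library left out in turn and, chosen after seeing the data, library totals without TMM. Values within 1 class come from the split groups, fitted over all 57 libraries, so their spread is estimated from both classes. A fit that leaves 1 library in a group pools the spread of the others.

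The members, gene lists and comparisons were chosen with earlier results of these data known. The rule names all 10 members in each comparison, though in those of the medium and low dose and between extracts mainly members past the threshold are described, and from each list at most the 2 genes past the threshold with the largest change, and for patterns the genes with the highest correlation over groups. Samples with the same replicate number deviated together (every correlation above 0.1, 3 pairs) only between the medium and low dose of Saengmaek-san (0.252 to 0.508) and of Guibi-tang (0.138 to 0.449), where no member passed with or without the block. One gene that this rule names among the AP-1 targets and 1 leukocyte marker are not reported here. Water extracts and a positive control named in the series text are not analysed here.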

Additional observations from a re-analysis of the deposited data

Results flagged for a closer look

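Differences between the extracts of 1 library set in the change from low to high dose passed an interaction test (edgeR, adjusted over all genes) for 7 member results. Between Polygalae Radix and Aucklandiae Radix they were FOS (log2 1.26), FOSL2 (0.85), JUN (0.36), JUND (1.84) and IER2 (0.54), each larger in Polygalae Radix. These are 5 of 10 members, near the share of all genes that passed, 45.9% (20.5% larger and 25.3% smaller). The JUN result was lost without any 1 of 5 of the 8 libraries. Between Menthae Herba and Saposhnikoviae Radix they were JUN (0.50) and EGR1 (2.06), each larger in Menthae Herba. These are 2 of 10 members, where 6.43% of all genes passed (1.9% larger and 4.53% smaller).

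In Okbyeongpung-san, whose single libraries enter no test, FOS, JUNB, IER2 and IER3 lay above every vehicle library at all 3 doses. At the high dose FOS read 5.39 CPM, JUNB 77.2, IER2 66.7 and IER3 83.8. The high dose of Soyo-san, in the same library set, had means of 3.51, 75.3, 69.4 and 92.1 CPM for these genes. Vehicle is another set, and the share of all genes above vehicle at all 3 doses was not computed.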

How the results depend on the processing

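Member calls were counted again under each alternative. The share of all genes called is not set beside these counts, so a rise or fall in them is not particular to the members. With a 2-fold threshold added, the 26 calls at the high dose against vehicle became 7, the 18 between high and low dose 8, the 11 between extracts 4, the 7 differences of dose changes 3, and the 8 and 10 at the medium and low dose against vehicle 0 each. At the medium dose against vehicle the count was 14 without a filter, 14 with class as a covariate and 21 in fits of the compared groups alone, and at the low dose 19 and 33 under the last 2. At the medium against the low dose it was 2 without a filter. DESeq2 gave 25, 8, 12, 19, 0, 12 and 7 calls, and the replicate block 26, 8, 9, 19, 0, 12 and 8, in the order high, medium and low dose against vehicle, high and medium against low, between extracts, and differences of dose changes.

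Leaving out 1 library at a time gave 21 to 26 calls at the high, 3 to 8 at the medium (lowest without Vehicle replicate 1) and 2 to 11 at the low dose against vehicle (lowest without Vehicle replicate 3), 16 to 20 at high against low, 0 to 1 at medium against low, 9 to 12 between extracts and 6 to 9 for differences of dose changes.

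Directions turned under library totals for JUN (0.33) and JUNB (0.10) in Polygalae Radix against vehicle and JUNB against its low dose (0.0053). With class as a covariate they turned for FOSL1 in Menthae Herba against vehicle (0.51 at the high, 0.31 at the medium dose), JUND at its low dose (0.52) and FOSL1 between Polygalae Radix and Aucklandiae Radix (-0.25, and -0.36 within class 1). The cause was not tested. Depth limits EGR1 and FOSB most, since their lowest libraries hold 15 and 16 counts.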
